A study of Mus musculus with 8 samples.

Results

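Autophagy is the route by which a cell wraps part of its cytoplasm in a double membrane, the autophagosome, and delivers it to the lysosome for breakdown. The 40 mouse genes described here encode its machinery: the kinase and lipid kinase complexes that start it, the proteins that grow the membrane, the conjugation systems that attach ubiquitin-like Atg8 proteins to it, cargo receptors, and transcription factors that control such genes. They were chosen by name from those with a row, with earlier results of these data known, and make up 40 of the 15978 rows in the authors' deposited table. None was called as changed at an adjusted p of 0.05, nor was any of the 15944 rows with a p. The deposited fold changes of the 40 genes lay between 0.901 and 1.08 in the authors' deposited table. On the log2 scale this is -0.15 to 0.12, against -0.32 to 0.35 over all rows with a p.

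Brain RNA came from 8 mice, all male and of SJL/Bl6 background. Of these, 5 mice expressed human C9ORF72 with 500 repeats of the hexanucleotide G4C2 from a bacterial artificial chromosome (BAC), a vector for long genomic inserts, and are called C9-BAC mice here; the other group was 3 wild-type mice. The sources used here name no age, brain region, transgene copy number or batch. The comparison asks how expression of the expanded human gene alters the brain transcriptome. Expanded G4C2 repeats cause familial amyotrophic lateral sclerosis and frontotemporal dementia, and the C9orf72 protein has been tied to autophagy through its binding partners Smcr8 and Wdr41.

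The deposited data give 1 value per gene for the whole comparison: a mean normalized count over the mice, a log2 fold change with its standard error (SE), and a p-value from DESeq2. The value in each mouse was not analysed here, so neither the spread between mice nor an overlap of the groups can be shown. The file headers do not name the numerator of the fold change, so each sign is given as deposited. Neuron, astrocyte, oligodendrocyte and microglia markers were present in full (6 of 6, 5 of 5, 5 of 5 and 5 of 5). Of the liver list 2 of 5 genes had a row, Ttr and Apoa1, with mean normalized counts of 33.2 and 1.85 in the authors' deposited table. For skeletal muscle 2 of 4 genes had a row, with counts of at most 103 in the authors' deposited table. Blood genes had 4 of 5 rows, with counts up to 1183 in the authors' deposited table. In bulk RNA, fewer cells of a type and less RNA per cell cannot be told apart. Of the markers, 5 of 6 neuronal, 4 of 4 endothelial, 4 of 4 blood and 2 of 2 muscle rows were positive and 5 of 5 astrocyte rows negative in the authors' deposited table. Of all rows with a p, 47.5% were positive. The negative neuronal row was Gad1, at -0.19 ± 0.10 (SE), with the smallest p of the markers in the authors' deposited table (DESeq2 p = 0.0694). Oligodendrocyte and microglia rows were mixed, each 2 positive and 3 negative, as were liver rows, 1 of each sign, in the authors' deposited table. No marker had a p under 0.05, and the blood genes Hba-a2 and Hbb-bs have no p in the authors' deposited table; their part in the autophagy values was not tested. Mouse C9orf72 had a log2 fold change of -0.075 ± 0.10 (SE) in the authors' deposited table (DESeq2 p = 0.454), a value that does not check the human transgene. Its partners Smcr8 and Wdr41 had values of -0.049 and 0.035 there, as the authors' deposited table gives them.

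Autophagy starts when the ULK kinase complex is released from inhibition by the growth kinase mTORC1 and activates a lipid kinase complex built on Pik3c3. The phosphatidylinositol 3-phosphate (PI3P) made there recruits WIPI proteins, and these guide the conjugation machinery that joins Atg8 proteins to the membrane lipid phosphatidylethanolamine. In neurons, autophagosomes form in the axon and travel toward the cell body, and loss of Atg5 or Atg7 in mouse neurons is known to cause degeneration. The transcription factors Tfeb and Tfe3 bind an E-box with the core CACGTG in the promoters of many lysosomal and some autophagy genes.

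That core was searched for in RefSeq promoter windows (build GRCm38.p6), which run from 250 bases before to 50 after an annotated start. It is its own reverse complement, so both strands read alike, and it is 1 form of the general E-box, which many other factors bind. A window was found for 33 of the 40 genes, 42 windows in all. The core was in 5 of them (11.9%), against 9.36% of the 15927 windows of genes in the table. The 5 genes are Atg5 and Atg7 of the conjugation machinery, the E2-like enzyme gene Atg3, and Atg14 and Nrbf2 of the lipid kinase complex. By gene the share was 15.2% of 33, against 11.1% of the 12557 genes of the table with a window. With shares this near, the core does not set the members apart, and genes without a window were not searched. Sites found among the searched genes are shown with 12 bases on each side, 5′ to 3′ on the gene's strand and with CACGTG in capitals:
Atg7, chr6:114670952-114670981 (+ strand): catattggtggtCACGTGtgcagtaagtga
Atg5, chr10:44268313-44268342 (+ strand): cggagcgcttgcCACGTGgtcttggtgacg
Nrbf2, chr10:67285472-67285501 (- strand): gacccggctcatCACGTGacagccgccgcc
Atg14, chr14:47568418-47568447 (- strand): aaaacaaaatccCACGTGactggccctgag
Atg3, chr16:45158723-45158752 (+ strand): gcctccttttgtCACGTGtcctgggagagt
Atg3, chr16:45158746-45158775 (+ strand): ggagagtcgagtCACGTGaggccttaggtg
Atg3 holds the core at 2 places, starting 94 and 71 bases before its start. In Atg5 it starts 14 bases before the annotated start, in Atg14 at 1 base before it, in Atg7 132 and in Nrbf2 208 bases before it. The starts of Atg3 and Atg14 are those of the gene bounds. Those of Atg5 and Nrbf2 lie 17 and 62 bases inside the bounds, so that the Atg5 core is itself inside them, and that of Atg7 lies 28.0 kb inside. The 5 genes had log2 fold changes of -0.15 to 0.062 in the authors' deposited table, 2 positive and 3 negative. The 28 genes with a window and no core had 15 positive and 13 negative values, from -0.11 to 0.12, in the authors' deposited table.

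**Figure D1:**
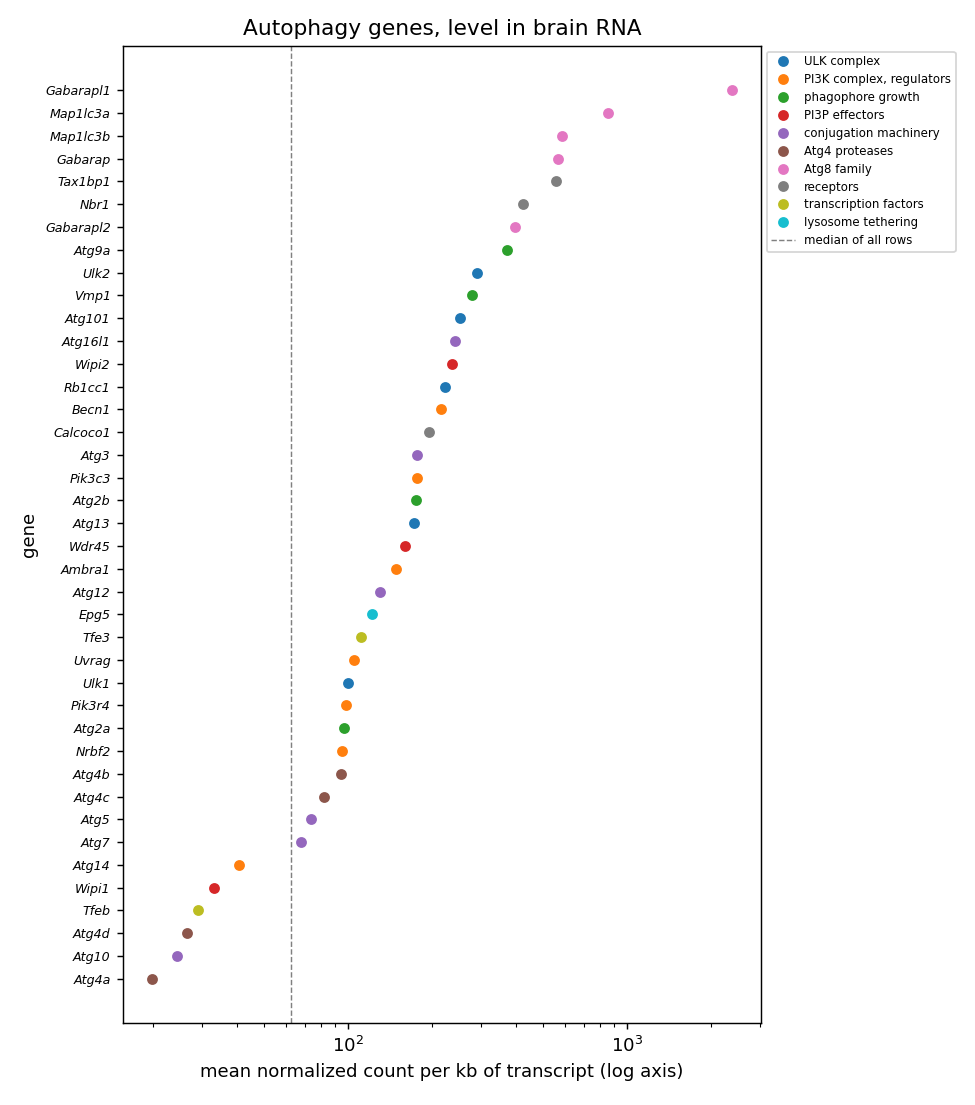
Level of the 40 autophagy genes in brain RNA, 1 point per gene, as the authors' mean normalized count over all mice divided by transcript length in kb (log axis), coloured by role. Gabarapl1 stands alone at the top at 2376 per kb, Atg4a, which shares much of its sequence with a retrogene, is lowest at 19.9, and 34 genes lie above the dashed median of all rows at 62.5.

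Most of the autophagy genes were well expressed in brain. Mean normalized counts ran from 38.6 for Atg10 to 4325 for Gabarapl1 in the authors' deposited table. At 100 or more were 36 of 40 genes, against 9624 of all 15978 rows. To compare genes, the mean count was divided by the mean length in kb of the transcripts named in the row. On that scale, the median of the 40 genes was 166 per kb, against 62.5 for all rows. Atg14, Wipi1, Tfeb, Atg4d, Atg10 and Atg4a lay below the median of all rows. The 5 Atg8 genes held places 1 to 4 and 7 of the 40, and Tax1bp1 and Nbr1, receptors that bind Atg8 proteins, held places 5 and 6. With the longest transcript as the length, 32 of 40 places were the same and no gene moved by more than 3.

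Within gene families, 1 member was often several times the level of another. Gabarapl1, at 2376 per kb, made up 49.7% of the summed Atg8 level. The others were Map1lc3a at 853, Map1lc3b at 588, Gabarap at 566 and Gabarapl2 at 397 per kb. Map1lc3a and Map1lc3b encode the LC3 proteins that serve as the usual markers of autophagosomes, and the GABARAP proteins act in autophagosome closure and fusion. Ulk2 (290 per kb) was 2.89 times Ulk1 (100.3 per kb), the 2 kinases that start the process. Wipi2 (236 per kb) was 7.14 times Wipi1 (32.96 per kb), or 11.6 times with the longest transcripts. Atg2b was 1.81 times Atg2a and Tfe3 3.84 times Tfeb. The Atg4 genes were Atg4b at 94.6, Atg4c at 82.2, Atg4d at 26.4 and Atg4a at 19.9 per kb. For Atg4a, 63.6% of its 50-base stretches also occur in the retrogene Atg4a-ps, so its level is uncertain; the part of the copy in it was not tested. These ratios have no error, since the table gives no spread of the mean counts.

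The comparison of C9-BAC and wild-type brain called none of the 40 genes at a DESeq2 adjusted p of 0.05 (0% of 15944 rows with a p were called), and every member had an adjusted p of 0.9997 in the authors' deposited table. At an unadjusted DESeq2 p under 0.05 the count was also 0 of 40, beside 1.5% of all rows in the authors' deposited table. Of the members, 22 had positive and 18 negative fold changes (55.0% positive, against 47.5% of all rows). Their median log2 fold change was 0.0093, against -0.0043 over all rows. An absolute log2 fold change over 0.1 was reached by 4 of 40 members, against 17.4% of all rows. The smallest p among the members, 0.136 for Nrbf2, was at place 889 of 15944 in the authors' deposited table.

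**Figure D2:**
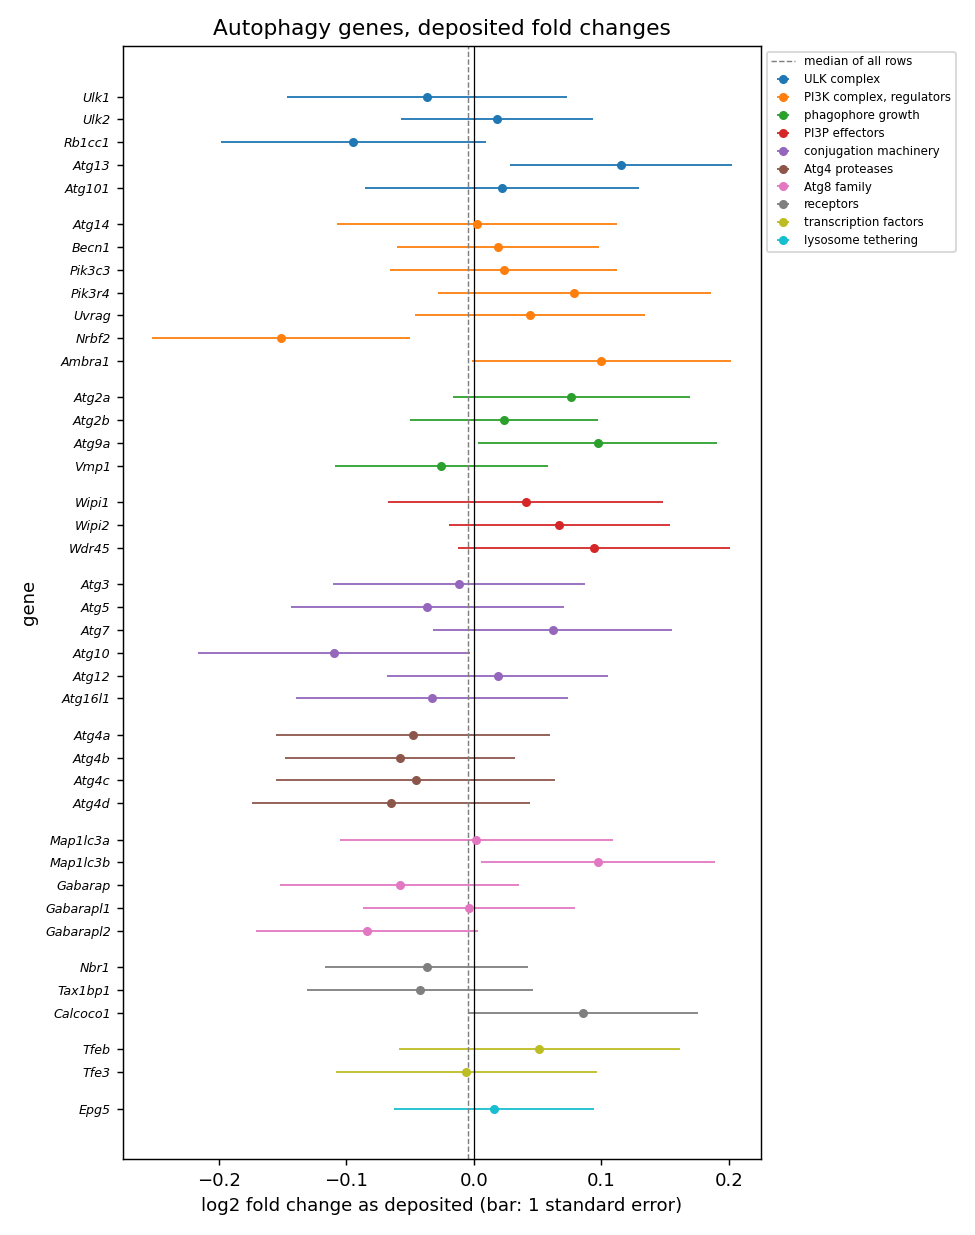
Log2 fold change of each autophagy gene as deposited by the authors, with bars of 1 standard error, grouped by role. Points lie between -0.15 (Nrbf2) and 0.12 (Atg13), the 4 Atg4 genes all lie left of 0 and the 3 PI3P effector genes right of it, and no gene is 2 standard errors from 0.

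A p that misses the threshold does not show that a gene was unchanged. The fold change plus or minus 1.96 standard errors covered 0 for all 40 genes and reached from -0.35 (Nrbf2) to 0.30 (Wdr45) at the extremes. These limits correspond to 0.785-fold and 1.23-fold. Standard errors were 0.074 to 0.11 for the members, and those of Ulk1 and Tfeb equalled the highest in the authors' deposited table, 0.11. Across the table, SEs have the form seen where a prior shrinks fold changes; whether one was used is not recorded in the labels or headers. With such a prior these limits understate the range of differences the data allow.

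The ULK complex phosphorylates other autophagy proteins and receives the signal from mTORC1. Atg13, its regulatory subunit that links the kinase to the other parts, had the second smallest p of all members, with 0.12 ± 0.087 (SE) on a log2 scale in the authors' deposited table (DESeq2 p = 0.183). Rb1cc1, the large scaffold also called FIP200, had -0.094 ± 0.10 (SE) in the authors' deposited table (p = 0.363). The kinases Ulk1 and Ulk2 lay closer to 0, at -0.037 and 0.018 (log2) in the authors' deposited table. Atg101, which stabilises Atg13, was at 0.022 in the authors' deposited table. The 5 subunits had 3 positive and 2 negative values, with a median log2 fold change of 0.018.

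Genes of the lipid kinase complex and its regulators had 6 positive values and 1 negative, with a median log2 fold change of 0.024. Core subunits were the catalytic Pik3c3 at 0.024, the pseudokinase scaffold Pik3r4 at 0.079 and Becn1 at 0.019 (log2) in the authors' deposited table. Atg14, which directs the complex to sites of autophagosome formation, was at 0.0023 ± 0.11 (SE) in the authors' deposited table, and Uvrag, which directs it to endosomes, was at 0.044. Ambra1, an adaptor of Becn1, had a log2 fold change of 0.10 ± 0.10 (SE) in the authors' deposited table (DESeq2 p = 0.323). The single negative value was that of Nrbf2, a subunit that associates with Atg14, at -0.15 ± 0.10 (SE) in the authors' deposited table (DESeq2 p = 0.136). It was the lowest fold change of the 40 genes. Nrbf2 is also 1 of the 5 genes with a CACGTG core shown above, and a link of that core to its fold change was not tested.

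Nrbf2, on chromosome 10 at 67266689 to 67285343 (GRCm38), also shared the most sequence with another locus. Of the 50-base stretches of its longest GENCODE M21 transcript, 69.4% occur in Gm6740, annotated in part as a processed pseudogene, on chromosome 14 at 52860985 to 52862752. The labels and headers do not give how reads that fit more than 1 place were counted, so its value is uncertain, and the part of the copy in it was not tested.

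Membrane growth needs lipid. Atg2a and Atg2b, lipid transfer proteins that bridge the growing membrane to the endoplasmic reticulum, were at 0.076 and 0.024 (log2) in the authors' deposited table. Atg9a, a lipid scramblase carried on vesicles, had 0.097 ± 0.094 (SE) in the authors' deposited table (DESeq2 p = 0.3002). Vmp1, a scramblase of the endoplasmic reticulum, was at -0.025 in the authors' deposited table. The PI3P-binding effectors were all positive: Wipi1 at 0.041, Wipi2 at 0.067 and Wdr45 at 0.094 (log2) in the authors' deposited table, each with an SE of 0.087 to 0.11. Wipi2 recruits Atg16l1, and mutations of human WDR45 cause a neurodegenerative disease with brain iron accumulation.

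Conjugation joins Atg12 to Atg5 through Atg7, an E1-like enzyme, and Atg10, an E2-like enzyme, and joins Atg8 proteins to lipid through Atg7, Atg3 and the Atg12-Atg5-Atg16l1 complex. The 6 genes had 2 positive and 4 negative fold changes and a median of -0.022 on the log2 scale. Atg7 was at 0.062 and Atg12 at 0.019 in the authors' deposited table. On the negative side were Atg3 at -0.012, Atg16l1 at -0.033, Atg5 at -0.036 and Atg10 at -0.11 in the authors' deposited table. Atg10, at 24.4 per kb the lowest of this group, had an SE of 0.11 in the authors' deposited table (DESeq2 p = 0.303).

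The Atg4 proteases trim Atg8 proteins before conjugation and release them from lipid afterwards. All 4 were negative, within a narrow log2 range, in the authors' deposited table: Atg4c -0.045, Atg4a -0.048, Atg4b -0.058 and Atg4d -0.065. Each was smaller than its standard error, which ran from 0.090 to 0.11 in the authors' deposited table, and their p-values were 0.524 to 0.678. Atg4a, on chromosome X at 140953845 to 141164194, has that retrogene, Atg4a-ps, on chromosome 3 at 103643954 to 103646068. Atg4d overlaps the row of Kri1 by 1381 bases, and 18.2% of its 50-base stretches occur in Kri1 on the opposite strand.

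The Atg8 genes had 2 positive and 3 negative log2 fold changes around a median of -0.0040. Map1lc3b was highest, at 0.098 ± 0.092 (SE) in the authors' deposited table (DESeq2 p = 0.289), while its relative Map1lc3a was at 0.0020 ± 0.11 (SE). Gabarapl1, the most abundant member, was at -0.0040 ± 0.083 (SE) in the authors' deposited table. Gabarap and Gabarapl2 were at -0.058 and -0.083 in the authors' deposited table (DESeq2 p = 0.535 and 0.338). Differences between these genes in their fold change were not tested.

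Selective autophagy uses receptors that hold both cargo and Atg8 proteins. Nbr1 and Tax1bp1, receptors for ubiquitin-marked cargo, were at -0.037 and -0.042 (log2) in the authors' deposited table. Calcoco1, a receptor for endoplasmic reticulum and Golgi, was at 0.086 ± 0.090 (SE) in the authors' deposited table (DESeq2 p = 0.340). The transcription factor genes Tfeb and Tfe3, whose E-box core was searched for above, were at 0.052 and -0.0057 (SE 0.11 and 0.10) in the authors' deposited table. Epg5, a tether of autophagosomes to late endosomes and lysosomes, was at 0.016 ± 0.078 (SE) in the authors' deposited table.

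Some members lie near each other in the genome. Atg13 and Ambra1 are neighbours on chromosome 2, with 19.5 kb between 91674612 to 91710597 and 91730138 to 91918849, and they had the highest and the second highest fold change of the 40 genes. Wdr45 and Tfe3 are 34.3 kb apart on chromosome X and were at 0.094 and -0.0057 (log2) in the authors' deposited table. Becn1 and Nbr1 are 250 kb apart on chromosome 11, at 0.019 and -0.037 in the authors' deposited table. The bounds of 7 members overlap another row. The longest overlap is that of Atg4a with Psmd10, 2867 bases, where Psmd10 has a mean normalized count of 133 and Atg4a one of 43.8 in the authors' deposited table. Atg4d with Kri1 is next, and the small RNA gene Scarna6, at 393.9 counts in the authors' deposited table, lies within Atg16l1. The other overlaps, of Becn1, Atg12, Map1lc3b and Gabarapl1, are 31 to 444 bases long. The libraries were strand-specific per the labels' protocols, but whether counting used strand is not given there, so values of overlapping genes are uncertain. Over 10% of 50-base stretches were shared with another gene for 9 members: Nrbf2, Atg4a, Wdr45, Becn1, Atg9a, Gabarapl1, Atg4d, Gabarapl2 and Rb1cc1. The gene sharing the most stretches lay on another chromosome for Nrbf2, Atg4a, Gabarapl2 and Rb1cc1. For Wdr45, Becn1, Atg9a, Gabarapl1 and Atg4d it overlapped the member's own place in the genome. For 21 members no stretch was shared.

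**Figure D3:**
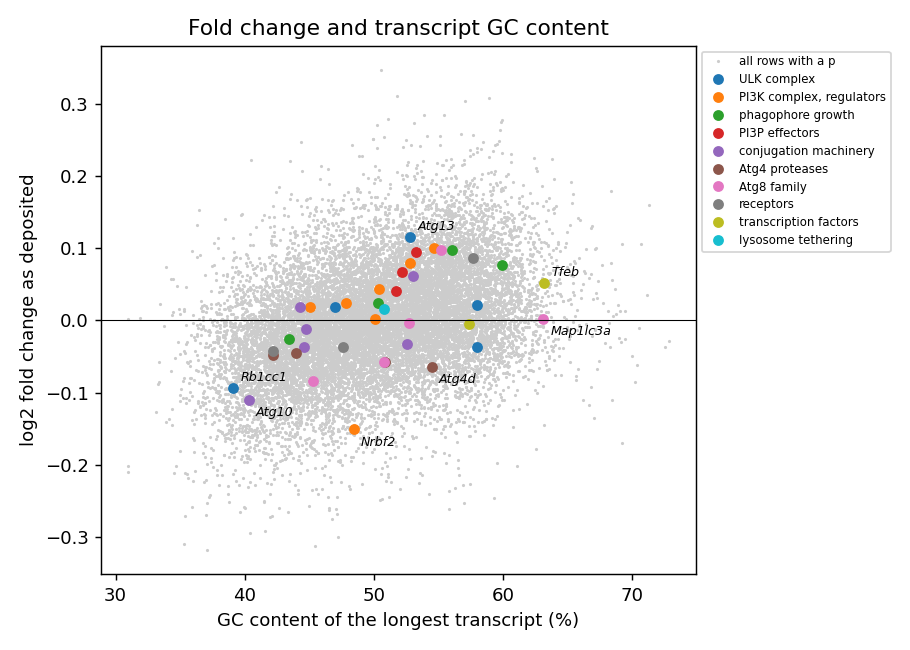
Log2 fold change as deposited by the authors against GC content of the longest transcript, with the autophagy genes coloured by role over all rows with a p in grey. In the lowest of 5 equal GC classes of all rows, 6 of 7 members, Rb1cc1 and Atg10 among them, lie below 0 and Atg12 lies above it, and most of those above 52.1% lie above 0, while Nrbf2 and Atg4d lie low for their GC content.

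The sign of a member's fold change went with the GC content of its transcript, as it did over the whole table. Members ranged from 39.1% GC for Rb1cc1 to 63.2% for Tfeb, with a median of 50.8% against 50.2% for all rows. Of the 20 members above their median GC content, 14 were positive, and of the 20 below it 8 were. With all rows split into 5 equal classes from low to high GC content, 1 of 7, 3 of 7, 5 of 8, 7 of 10 and 6 of 8 members were positive. The shares over all rows in those classes were 23.1%, 37.4%, 49.9%, 60.9% and 66.3%. Spearman's rho between GC content and log2 fold change was 0.561 and Pearson's r 0.540 over the 40 members, and 0.384 and 0.380 over 15835 rows. These are correlations across genes from the same libraries, and genes are not independent replicates.

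With the trend on GC content taken off, the median log2 fold change of the members was 0.012, with 23 positive and 17 negative values. The 4 Atg4 genes stayed negative, from -0.085 for Atg4d to -0.0035 for Atg4a, and the 3 PI3P effectors positive, from 0.032 to 0.079. Signs in other role groups moved: the ULK complex had 2 positive and 3 negative values and the conjugation machinery 3 of each. The Atg8 genes had 1 positive and 4 negative values, the receptors 2 and 1, and all 4 membrane growth genes were positive. The lipid kinase group kept 6 positive and 1 negative, the transcription factors 1 of each, and Epg5 stayed positive. Nrbf2 was at -0.14 and Atg13 at 0.10, while Rb1cc1 moved from -0.094 to -0.035 and Atg10 from -0.11 to -0.056. The GC trend was also taken off the DESeq2 statistic, which was then rescaled to an empirical null. On that scale 1 of 40 members had an unadjusted p under 0.05, beside 6.26% of all rows. It was Nrbf2, with an unadjusted p of 0.0451 and an adjusted p of 0.793. An adjusted p of 0.05 was passed by 0 members, beside 0.0379% of all rows. With the empirical null alone, 0 of 40 members were under an unadjusted p of 0.05, beside 5.11% of all rows, and Nrbf2 was at 0.0638. Rescaling divided the statistic by 0.690 with the GC trend removed and by 0.777 without, which by itself lowers most p-values.

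**Figure D4:**
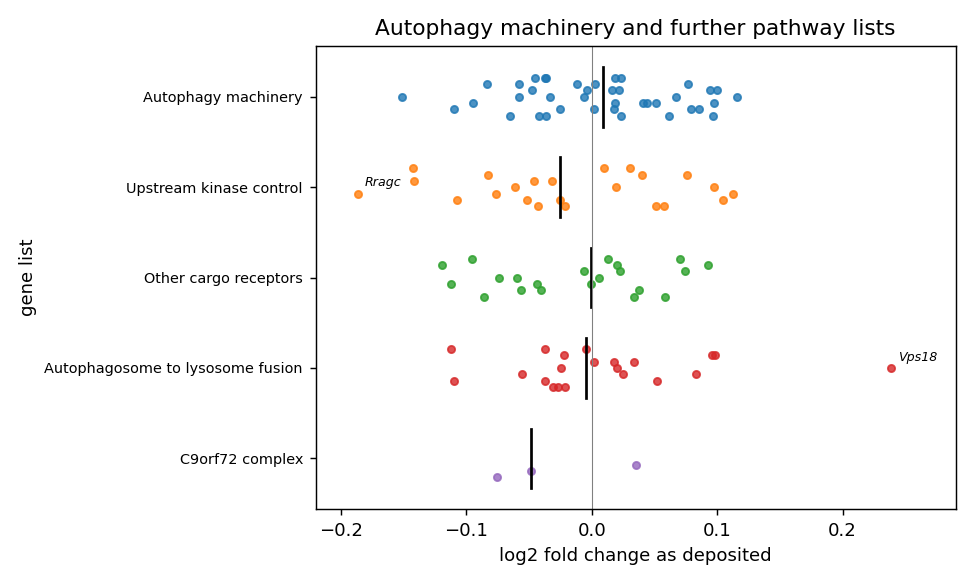
Log2 fold changes as deposited by the authors for the autophagy machinery and 4 further lists, 1 point per gene, with a black line at each list's median (vertical scatter within a list has no meaning). Rragc, at -0.19, and Vps18, at 0.24, are labelled as those with an unadjusted p under 0.05.

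Genes upstream and downstream of the machinery held 2 genes with an unadjusted DESeq2 p under 0.05 among 65, beside 1.5% of all rows, and 0 that passed. Upstream, 23 genes of mTORC1, AMPK, the TSC complex and the Rag and Ragulator proteins that hold mTORC1 at the lysosome had 10 positive and 13 negative fold changes, with a median of -0.025 on the log2 scale. Of these, 0 passed the adjusted threshold and 1 had an unadjusted p under 0.05. It was Rragc, a Rag GTPase that relays amino acid supply to mTORC1, at -0.19 ± 0.090 (SE) in the authors' deposited table (DESeq2 p = 0.0379, adjusted p = 0.9997). The next was the Ragulator subunit Lamtor3 at -0.14 ± 0.11 (SE) in the authors' deposited table (DESeq2 p = 0.182). Mtor itself was at -0.021 in the authors' deposited table.

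Other cargo receptors and mitophagy genes, 21 in all, had 10 positive and 11 negative fold changes, and 0 had an unadjusted DESeq2 p under 0.05, beside 1.5% of all rows. Ncoa4, the receptor for the iron store ferritin, was at -0.12 ± 0.085 (SE) in the authors' deposited table (DESeq2 p = 0.159). The mitochondrial receptor gene Fundc1 was at -0.11 ± 0.099 (SE) in the authors' deposited table (DESeq2 p = 0.258). Sqstm1, which encodes the receptor p62, was at 0.034 ± 0.10 (SE) in the authors' deposited table. The p62 protein accumulates when autophagy is blocked, but these are RNA values, and neither protein nor autophagy activity was measured here. Tbk1, a kinase that phosphorylates autophagy receptors, and Optn, one of those receptors, are mutated in some cases of amyotrophic lateral sclerosis and were at -0.096 and 0.038 in the authors' deposited table.

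Fusion of autophagosomes with lysosomes uses the SNARE Stx17, the HOPS tethering complex and the small GTPases Rab7 and Arl8. Of 22 listed genes, 21 had a row, with 10 positive and 11 negative fold changes and a median of -0.0047 on the log2 scale. At an unadjusted p under 0.05 there was 1 gene of 21, beside 1.5% of all rows. It was Vps18, a core subunit of HOPS, at 0.24 ± 0.095 (SE) in the authors' deposited table (DESeq2 p = 0.0123, adjusted p = 0.9997). Next came Tmem41b, at -0.11 in the authors' deposited table (DESeq2 p = 0.225). It was placed in this list, but it is a scramblase that works with Vmp1, described above under membrane growth. The 6 HOPS subunits, a subset singled out after the values were seen, had log2 fold changes of -0.0047 (Vps41) to 0.24 (Vps18) in the authors' deposited table. Of these 5 were positive, against 47.5% of all rows, and a subset chosen in this way cannot be read as a result. Stx17 and Rab7 were at -0.021 and 0.0016 in the authors' deposited table.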

How the data were processed

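RNA sequencing of brain from 5 C9-BAC and 3 wild-type mice was used through the authors' deposited comparison. Per the submitters' processing notes, the tools were Trimmomatic, Bowtie2, DESeq and DESeq2 on build mm10. The counter and annotation are not given in the labels. Per the file headers, the columns the authors deposited are a mean normalized count (a signal, counts divided by size factors), the log2 fold change with an SE, a Wald statistic (a score), and a p-value before and after adjustment. The statistic differed from fold change over standard error by at most 8.3e-07, and a Benjamini-Hochberg adjustment over 15944 rows gave the adjusted p back to within 5.3e-12. The mean counts sum to 9226700 (rounded), the only measure of depth.

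RefSeq accessions gave symbols for 15857 rows (GRCm38.p6) and GENCODE M21 for 73 more; 15869 rows had a GC content. Each sample is taken as 1 mouse; if not, p-values measure only the spread between samples. The GC trend was a lowess fit (span 0.3, statsmodels 0.14.6, Python 3.11.15) over all rows. The empirical null centred the statistic, as deposited or after its GC trend was removed, on its median and divided by its MAD-based SD. The members and lists were chosen with earlier results of these data known. The rule for named genes takes every member in its role group and, in each further list, the 2 genes of smallest p and any that pass; other genes named there were chosen for their known role, after their values were seen.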

Additional observations from a re-analysis of the deposited data

How the results depend on the processing

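The count of members passing an adjusted p of 0.05 was 0 under each alternative run: mean normalized counts of at least 10 or at least 50, the empirical null, and the empirical null with the GC trend removed. For the count filters and the empirical null alone this was fixed in advance. An adjusted p is never below its unadjusted p, and no member had one under 0.05 in those runs. Of all rows, 0% passed with the empirical null and 0.0379% with the GC trend removed as well. At an unadjusted p under 0.05 the count was 0 with the empirical null (5.11% of all rows) and 1, Nrbf2, with the GC trend removed as well (6.26% of all rows). The median log2 fold change was 0.0093 as deposited, 0.014 relative to the median of all rows and 0.017 for the 38 members at 50 or more counts. Rows without a p changed nothing, since every member had one. The GC-adjusted median was 0.012, and 0.013 both with length also taken off and with the GC content of the named transcripts. The share of member windows with CACGTG was 9.52% in the 250 bases before the start alone, against 7.85% of windows of genes in the table. No paired analysis was possible because the genotypes share no replicate number and the table has no value per mouse. Fits without 1 mouse were not run for the same reason. A single call over the table would have needed a statistic of 4.66, and the largest among the members was 1.49 in absolute value.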
